A study of Homo sapiens with 24 samples.

Results

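The heat shock chaperones of the cytosol and mitochondria, together with the transcription factor HSF1, were followed through a time course of the human cell line K562. The set held 10 genes of the 12285 in the expression table, and all 10 were found there by their Ensembl identifiers. They were listed by name, with earlier results of these data known. HSPA1A and HSPA1B are the stress-inducible HSP70 genes, HSPA8 is the constitutive HSP70, HSPH1 is an HSP110 that exchanges the nucleotide on HSP70, and DNAJB1 is a J-domain partner of HSP70. HSP90AA1 and HSP90AB1 are the inducible and constitutive cytosolic HSP90 genes, HSPD1 and HSPE1 are the chaperonin and co-chaperonin of the mitochondrial matrix, and HSF1 is the factor that binds heat shock elements in the promoters of such genes.

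K562 is an erythroleukaemia line established from chronic myeloid leukaemia. The cells were grown in RPMI with 10% bovine calf serum and P/S, sorted into a synchronous population by size with centrifugal elutriation, and returned to culture. No heat, drug or genetic change was applied according to the labels. Total RNA was taken at 2 h steps between 0 h and 46 h and sequenced as 1 library per time point, so that the 24 libraries form a series with no replicates and no untreated group. The labels do not say whether more than 1 culture was sampled. Values are FPKM, which are reads scaled to transcript length and library size, and their read depth is unknown. The study marks 16 h and 18 h as irregular libraries and 32 h as a mild case. Unless stated, ranges below leave out 16 h and 18 h and cover the remaining 22 time points, with 32 h kept in.

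Chaperones bind unfolded proteins and help them to fold, and HSP70, HSP90 and the J-domain proteins work in turn on many of the same substrates. In unstressed cells HSF1 is held mostly inactive, partly by the chaperones themselves, and heat or proteotoxic stress frees it to bind DNA as a trimer. Proliferating cells also use chaperones during growth, and the constitutive members are among the most abundant transcripts of many cell types.

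All 14 K562 markers were present, among them GATA1 and the fetal and embryonic globins, whereas 1 of 7 fibroblast markers, 2 of 7 lymphoid markers and 1 of 6 monocyte markers were in the table. The 16 h and 18 h libraries stood apart. The summed level of the K562 markers was 3357 and 3037 FPKM there against 4430 to 8223 elsewhere, and the nuclear RNA MALAT1 was at 11073 and 12319 FPKM against 556 to 1593. NEAT1, also nuclear, was lower, at 133 and 110 FPKM against 183 to 540. The 10 genes took 0.692% to 1.06% of the summed FPKM in the other libraries and up to 1.68% at 18 h.

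The promoters are shown first because the heat shock element is the sequence feature through which HSF1 acts, and because the members differ in it. The element was searched as GAANNTTC or TTCNNGAA (2 units) and as GAANNTTCNNGAA or TTCNNGAANNTTC (3 units) in the 250 bases before each RefSeq start site on build GRCh38.p14. Each form is its own reverse complement or is searched with it, so both strands were covered, and every 3-unit match holds 2 overlapping 2-unit matches. RefSeq windows were matched for 9 genes, which had 15 start sites in all, and none was used for HSF1. A 2-unit element was found for 7 of the 9 genes (HSPA1A, HSPA1B, HSPA8, DNAJB1, HSP90AA1, HSP90AB1 and HSPD1) and a 3-unit element for 4 (HSPA8, HSP90AA1, HSP90AB1 and HSPD1). Counted by window, 7 of the 15 held the 2-unit form and 4 the 3-unit form. Of all 35116 windows of this length, 11.6% held the 2-unit form and 0.441% the 3-unit form. These shares are per window and not per gene. No match was found in the windows of HSPE1 and HSPH1, which says only that these letters are not there. The HSPE1 window was chr2:197500129-197500378. The HSPD1 elements, within chr2:197500059-197500088, lie outside that window but between the start sites 197499840 of HSPD1 and 197500379 of HSPE1.

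The stretches below are parts of those windows that lie outside annotated untranslated exons, or 30 bases around an element where none could be shown otherwise. They are written 5′ to 3′ on the strand of the gene with the 2-unit elements in capitals. The stretches are chr6:31815293-31815463 (plus) for HSPA1A, chr6:31827488-31827734 (plus) for HSPA1B, chr19:14518421-14518647 (minus) for DNAJB1, chr6:44247693-44247865 (plus) for HSP90AB1, chr11:123062336-123062386 (minus) for HSPA8 and chr2:197500059-197500088 (minus) for HSPD1.
HSPA1A: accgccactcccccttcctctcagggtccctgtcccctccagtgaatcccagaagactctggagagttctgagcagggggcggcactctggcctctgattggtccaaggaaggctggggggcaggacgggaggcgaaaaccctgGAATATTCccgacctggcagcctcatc
HSPA1B: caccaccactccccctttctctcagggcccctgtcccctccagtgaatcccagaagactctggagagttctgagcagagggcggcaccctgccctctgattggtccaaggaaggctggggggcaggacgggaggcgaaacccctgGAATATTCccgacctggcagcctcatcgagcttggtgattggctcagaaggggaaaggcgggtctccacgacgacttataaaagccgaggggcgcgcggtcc
DNAJB1: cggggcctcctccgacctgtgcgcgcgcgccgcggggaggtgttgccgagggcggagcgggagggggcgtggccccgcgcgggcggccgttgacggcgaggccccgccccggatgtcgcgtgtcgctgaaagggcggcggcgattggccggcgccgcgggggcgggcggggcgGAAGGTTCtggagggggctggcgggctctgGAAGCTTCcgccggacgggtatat
HSP90AB1: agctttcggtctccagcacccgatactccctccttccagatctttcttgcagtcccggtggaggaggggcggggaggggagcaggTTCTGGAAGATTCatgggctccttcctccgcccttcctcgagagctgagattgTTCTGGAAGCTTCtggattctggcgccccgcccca
HSPA8: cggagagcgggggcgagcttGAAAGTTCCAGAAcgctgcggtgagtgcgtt
HSPD1: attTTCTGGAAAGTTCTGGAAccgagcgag

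HSPA1A and HSPA1B are neighbours on chromosome 6 with 1 element each, which starts 106 and 105 bases before the start site. Their 250 upstream bases were 93.6% identical when aligned, and their coding sequences were identical at 1922 of 1926 bases (99.8%), whereas the stretches after the stop codon, of 264 and 379 bases, were only 51.5% identical. Most reads from the coding part of either gene would fit both, and the split between HSPA1A and HSPA1B rests on how such reads were assigned. Their sum, given beside them, would depend less on how shared reads were divided. The longest transcripts are close in length (2483 and 2521 bases), but FPKM is scaled to the length of each gene. Whether all shared reads were kept could not be checked. Counts of members below hold HSPA1A and HSPA1B as 2 genes, although their values are not independent. HSPD1 and HSPE1 lie on opposite strands of chromosome 2 and start 539 bases apart, taken from the HSPD1 start whose window holds the elements. The other HSPD1 start (197500274) lies nearer to that of HSPE1 (197500379). DNAJB1 had 2 separate elements, at 77 and 47 bases before its start, and HSP90AB1 and HSPA8 each had 2 elements of 3 units, of which that of HSPA8 nearer to its start is not shown.

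The levels spanned more than an order of magnitude. By mean FPKM over the series, HSPA8 ranked 10 among the 12285 genes, HSP90AB1 20, HSP90AA1 59 and HSPD1 84. HSPE1 ranked 421, HSPH1 753, HSPA1A 1568, DNAJB1 2081, HSPA1B 2264 and HSF1 2444. FPKM is a level per length, so these genes can be set in order. HSPA8 ran from 742 to 1854 FPKM (median 1437) and HSP90AB1 from 1064 to 1500 (median 1275), so that their ranges overlapped. HSP90AA1 (599 to 871, median 700) lay below both except for the lowest HSPA8 values, and HSPD1 (419 to 722, median 486) overlapped the lower part of HSP90AA1. The highest values of HSPA8 and HSPD1 were those of 32 h, and without it they were 1788 FPKM at 12 h and 583 FPKM at 22 h.

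HSPE1 ran from 118 to 244 FPKM with a median of 186, and HSPH1 from 70.7 to 143 with a median of 107. The lowest 4 members could not be put in order, since DNAJB1 (33.6 to 72.0, median 55.5), HSPA1A (17.02 to 116, median 53.1), HSPA1B (15.5 to 97.7, median 46.3) and HSF1 (37.2 to 60.2, median 42.0) overlapped throughout. The 2 inducible HSP70 genes varied most, with a highest value 6.80 times the lowest for HSPA1A and 6.31 times for HSPA1B. The same ratio was 2.50 for HSPA8, 2.15 for DNAJB1, 2.07 for HSPE1, 2.02 for HSPH1, 1.73 for HSPD1, 1.62 for HSF1, 1.45 for HSP90AA1 and 1.41 for HSP90AB1. The lowest values of HSPA1A and HSPA1B were those of the single 46 h library. Their next lowest were 25.4 FPKM at 4 h for HSPA1A and 24.6 at 2 h for HSPA1B.

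**Figure D1:**
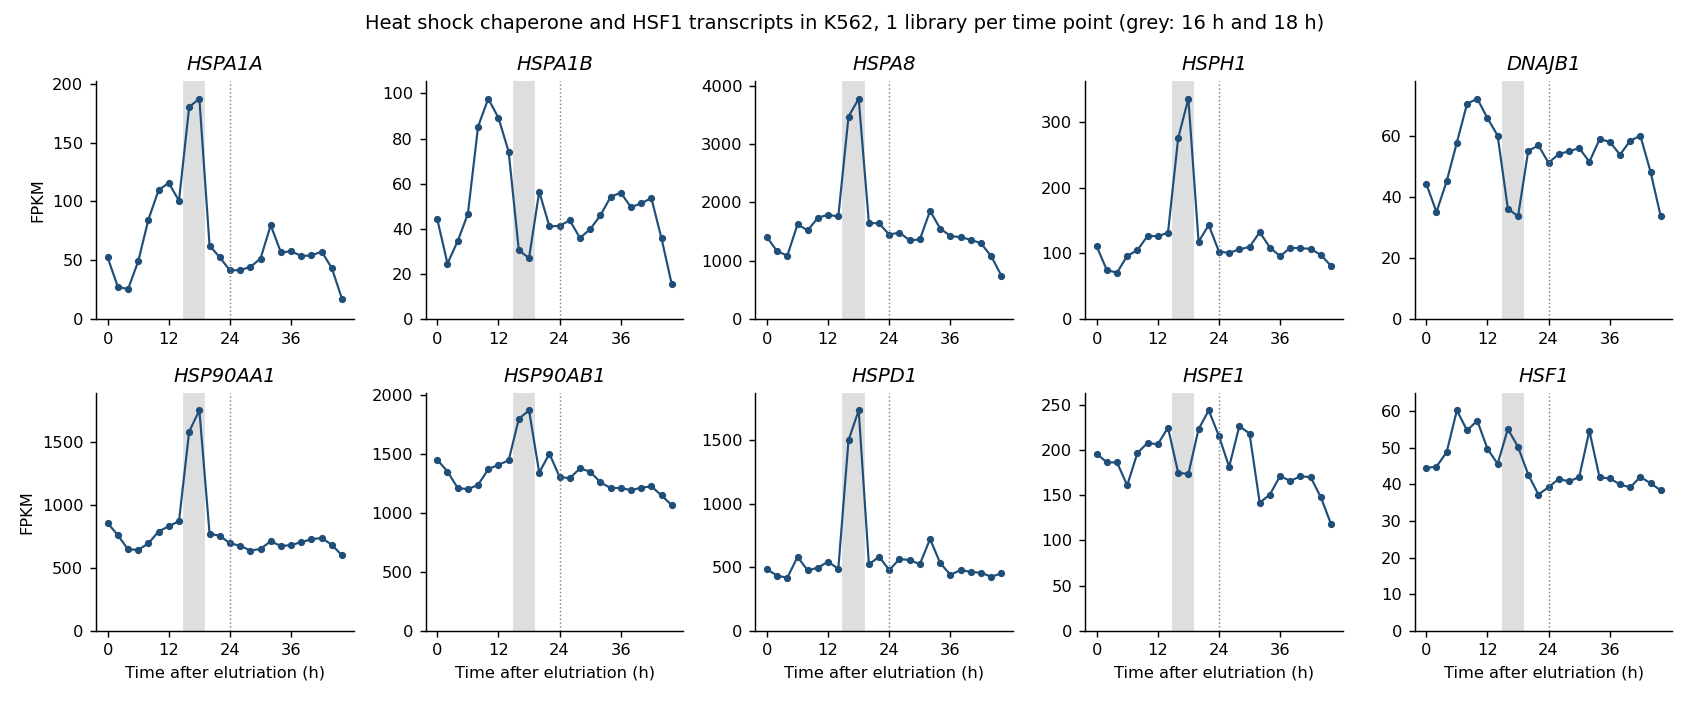
FPKM (vertical axis, from 0, a separate scale for each gene) of the 10 genes against time after elutriation in hours; each point is 1 library, the grey band marks 16 h and 18 h and the dotted line marks 24 h. HSPA1A and HSPA1B are at 25.4 and 34.6 FPKM at 4 h and at 116 and 89.2 at 12 h, and 6 panels (HSPA1A, HSPA8, HSPH1, HSP90AA1, HSP90AB1 and HSPD1) have their highest point in the grey band.

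The inducible HSP70 genes had their hump in the first day. In the 8 libraries from 0 h to 14 h HSPA1A stood at 52.4, 27.6, 25.4, 49.2, 84.5, 109.7, 115.8 and 100.6 FPKM. It was 62.5 FPKM at 20 h and 52.5 at 22 h. From 24 h to 30 h it lay between 41.3 and 51.5 FPKM. The second day thus began near the level of 0 h and well above the values of 2 h and 4 h. It was 79.8 FPKM at 32 h and between 53.7 and 57.6 from 34 h to 42 h. The last 2 libraries, 44 h and 46 h, had 43.3 and 17.02 FPKM.

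HSPA1B followed a similar course outside 16 h and 18 h, except at 32 h. There it had 45.9 FPKM, between 39.9 at 30 h and 54.1 at 34 h, whereas HSPA1A was higher at 32 h than at both. From 0 h to 14 h HSPA1B had 44.3, 24.6, 34.6, 46.6, 85.3, 97.7, 89.2 and 74.2 FPKM. From 20 h to 32 h it lay between 36.0 and 56.5 FPKM, from 34 h to 42 h between 49.6 and 56.1 and in the last 2 libraries it had 35.7 and 15.5. The sum of the 2 genes was lowest in the first day at 2 h (52.2 FPKM) and highest at 10 h (207 FPKM). It was 82.7 FPKM at 24 h and 114 at 36 h, and 32.5 at the end of the series.

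From 4 h to 12 h, a step chosen after the values were seen, HSPA1A differed by 2.14 and HSPA1B by 1.34 on the log2(FPKM + 1) scale. Among all genes 0.392% differed by 2-fold or more upward over this step. These 2 members of 10, which are not independent, were the ones that did. HSPH1 (0.82), HSPA8 (0.71) and DNAJB1 (0.53) followed, then HSPD1 (0.38), HSP90AA1 (0.36), HSP90AB1 (0.22), HSPE1 (0.15) and HSF1 (0.03). All 10 values were above 0, with a median of 0.46 against 0.01 over all genes. Each is a difference between single libraries and has no replicate check. The step also starts after 0 h. At 12 h HSP90AA1 (832 FPKM) and HSP90AB1 (1406) lay below their 0 h values (857 and 1448), and the other members lay above theirs.

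The matching step one day later, from 28 h to 36 h, was smaller. HSPA1A differed by 0.37 and HSPA1B by 0.63 on the same log2 scale. No member reached 2-fold, against 0.514% of genes upward. HSPH1 (-0.15), HSP90AB1 (-0.19), HSPD1 (-0.34) and HSPE1 (-0.40) were lower at 36 h than at 28 h, and the median over the members was 0.05.

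The hump was also compared as a block of 4 libraries, chosen after the values were seen. At 8 h to 14 h, DNAJB1 was 70.4, 72.0, 65.7 and 60.0 FPKM, and at 32 h to 38 h it was 51.4, 58.8, 58.0 and 53.7, so that the lowest of the first day was above the highest of the second. HSPE1 had 196.6, 207.7, 206.2 and 224.7 FPKM against 141.6, 150.6, 171.2 and 165.6, again with no overlap. HSPA1A and HSPA1B also did not overlap, their lowest first-day values being 84.5 and 74.2 FPKM and their highest second-day values 79.8 and 56.1. These 4 of 10 members, among them HSPA1A and HSPA1B, which are not independent, stand against 12.8% of all genes. The block was picked where the hump was seen, so this share does not test it. Without the 32 h library HSP90AB1 and HSF1 also did not overlap, which makes 6 members against 20.1% of genes. The mean difference was largest for HSPA1B (0.74) and HSPA1A (0.73) on the log2(FPKM + 1) scale and reached 2-fold in no member, against 0.237% of genes.

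The last library held the lowest values of the series for most members. At 46 h, 7 of the 10 genes had their lowest value of the 22 libraries, against 10.8% of all genes. These were HSPA1A, HSPA1B, HSPA8, DNAJB1, HSP90AA1, HSP90AB1 and HSPE1. Over the last 3 libraries (42 h, 44 h and 46 h) HSPA8 was 1297, 1080 and 742 FPKM. DNAJB1 was 59.9, 48.2 and 33.6 FPKM in the same libraries. Both were lower at 44 h than at 42 h, as were the other members, although for several the 44 h value was not low in the series. HSPA1A, for example, had 43.3 FPKM at 44 h and 41.3 at 24 h. The share of all genes lower over this step was not counted.

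Between 42 h and 46 h, HSPA1B differed by -1.73 and HSPA1A by -1.70 on the log2(FPKM + 1) scale, followed by DNAJB1 (-0.82) and HSPA8 (-0.80). HSPA1A and HSPA1B, which are not independent, were the 2 members of 10 past 2-fold downward, against 0.457% of genes. HSPD1 hardly moved, from 457.0 to 451.3 FPKM, and HSF1 went from 42.0 to 38.3. The 46 h library stood at the edge of the series in other ways too. Its summed FPKM, 456791, was the lowest of the 24, its median over genes was 13.8 FPKM, and 11.3% of genes had their highest value of the 22 libraries there. The part of this in the low values was not tested.

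Whether the members followed a 24 h order was tested with the JTK statistic, which compares the rank order of the time points with that of a 24 h cosine at each of 12 phases. Over all 24 libraries, 1 of 10 members was called (HSPA1A, adjusted permutation p = 0.0166, phase 14 h), against 13% of all genes. DNAJB1 (adjusted permutation p = 0.0535), HSPA1B (0.0588) and HSP90AA1 (0.0637) were just above the threshold of 0.05. HSF1 had 0.125, HSPH1 0.206 and HSPA8 0.309, and HSP90AB1, HSPD1 and HSPE1 had 0.796 or more.

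Without 16 h and 18 h, 4 of 10 members were called against 14.7% of genes. These were HSPA1A (adjusted permutation p = 0.0133, phase 12 h), DNAJB1 (0.0205, 12 h), HSPA1B (0.0283, 12 h) and HSF1 (0.0417, 8 h). Without 32 h as well, the 3 chaperones were called (adjusted permutation p = 0.0143 to 0.0328) and HSF1 was not (0.0642), against 16.7% of genes. HSPE1, whose first-day and last values are given above, was not called in either setting. The series spans less than 2 full cycles, and the second-day hump was lower, so that a 24 h order cannot be told apart from a course that follows the start of the culture.

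Levels of the second day were then compared with those of the first at matched hours, for example 26 h with 2 h, over 10 pairs that leave out 16 h and 18 h with their partners. By limma, with p-values adjusted over 12253 genes, 2 members were lower on the second day and none was higher. The background was 6.8% of genes lower and 12.6% higher, and with each library divided by its median the numbers were 1284 lower and 1276 higher in place of 833 and 1547. HSP90AA1 fell by 0.18 (SE 0.052, limma adjusted p = 0.0326), being lower in 8 of 10 pairs. HSF1 fell by 0.20 (SE 0.059, limma adjusted p = 0.0358), being lower in 9 of 10 pairs.

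Both calls rested on small differences. That of HSP90AA1 was not kept without 22 h and 46 h (-0.16, limma adjusted p = 0.0576) or with all 12 pairs, where the difference was larger (-0.34, limma adjusted p = 0.0515). That of HSF1 was not kept without the matching of hours, where the difference was the same (-0.20, limma adjusted p = 0.0768). HSPA1B had the largest difference, -0.44 with a 95% interval from -0.80 to -0.08 (limma adjusted p = 0.0775), lower in 8 of 10 pairs. HSPA1A differed by -0.39 (interval -0.83 to 0.04), HSPE1 by -0.25 (-0.52 to 0.03), HSPA8 by -0.18 (-0.46 to 0.10) and HSP90AB1 by -0.12 (-0.27 to 0.02). DNAJB1 (-0.09), HSPH1 (-0.05) and HSPD1 (0.03) lay nearest to 0. The median over the members was -0.18 against 0.01 over all genes.

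**Figure D2:**
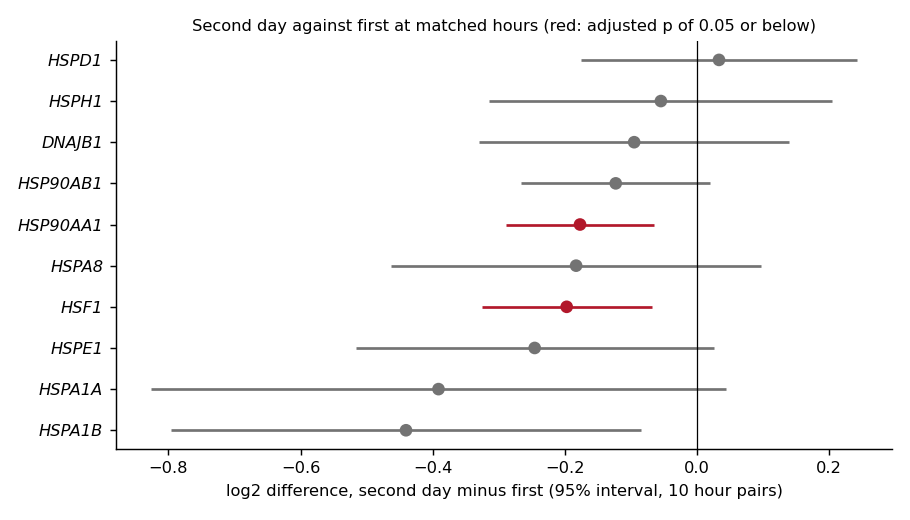
Difference between the second and the first day at matched hours for each member (horizontal axis, log2(FPKM + 1) scale, second day minus first), with the limma estimate as a point and its 95% interval as a line, over 10 hour pairs. HSP90AA1 and HSF1, in red, have an adjusted p of 0.05 or below; HSPA1A and HSPA1B have the largest differences and the widest intervals.

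The hours just after elutriation were set against those one day later, 0 h, 2 h and 4 h against 24 h, 26 h and 28 h, with neighbouring time points in place of replicates. By limma no member passed the adjusted threshold, and 2 had an unadjusted p under 0.05. Among all genes 0.0571% were called higher and 0.114% lower, and 2032 had an unadjusted p under 0.05. DNAJB1 was 44.2, 35.0 and 45.1 FPKM in the first hours against 51.0, 54.0 and 54.8 later, with no overlap (-0.36, SE 0.115, limma adjusted p = 0.210). The share of all genes without overlap was not counted. HSPD1 was 485, 433 and 419 FPKM against 479, 565 and 557 (-0.26, SE 0.105, limma adjusted p = 0.284).

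HSF1 and HSP90AA1 were the other way round, with higher values in all 3 early hours. HSF1 was 44.5, 44.8 and 48.8 FPKM against 39.2, 41.5 and 40.8, also with no overlap (0.18, limma adjusted p = 0.336). HSP90AA1 was 857, 760 and 647 FPKM against 696, 676 and 638, which overlapped as groups (0.16, limma adjusted p = 0.519). Without the 0 h library, HSPA1A (-0.66, limma adjusted p = 0.0285) and HSPH1 (-0.50, limma adjusted p = 0.0435) were called lower in the first hours, against 2.03% of genes called lower in that setting. Their 0 h values, 52.4 and 110.9 FPKM, were the highest of their 3 early hours.

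At 16 h and 18 h the members split. In the 4 libraries from 14 h to 20 h, in that order, HSPD1 had 487, 1501, 1737 and 523 FPKM. HSPA8 had 1759, 3468, 3777 and 1650 FPKM, HSP90AA1 had 871, 1584, 1753 and 772, and HSPH1 had 131, 275, 335 and 118. In the same libraries HSPE1, the partner of HSPD1, had 225, 175, 173 and 223 FPKM, and DNAJB1 had 60.0, 36.1, 33.6 and 55.0. HSPA1A had 100.6, 180, 187 and 62.5 FPKM while HSPA1B had 74.2, 30.5, 27.1 and 56.5.

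A line was drawn for each gene through its 14 h and 20 h values, and the mean distance of the 2 libraries between them from that line put 5 of 10 members at 2-fold or more above the line and 1 below it. Among all genes 8.95% were above and 7.11% below. The 5 were HSPD1 (1.68 on the log2(FPKM + 1) scale), HSPH1 (1.28), HSPA1A (1.202), HSPA8 (1.09) and HSP90AA1 (1.02), and HSPA1B (-1.14) was below. DNAJB1 (-0.71), HSP90AB1 (0.40) and HSF1 (0.25) stood outside their own range over 16 other pairs of consecutive libraries. HSF1 was close to its highest other pair (0.21), and was at 0.019 with each library divided by its upper quartile. HSPE1 (-0.36) stood within its range of -0.40 to 0.47. The share of all genes outside their own range was not counted. No member reached 2-fold in any of the 16 other pairs, where 0.0408% to 0.808% of all genes did per pair and direction. There are no replicates of these libraries, and the values carry no test.

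The counts depended on the scale. With each library divided by its upper quartile, 2 members were above 2-fold, and the numbers over all genes were 579 above and 1299 below in place of 1097 and 871. With each library divided by its median, 3 were above, with 794 and 1100 genes. When a trend with transcript GC content was removed, 2 were above (HSPA1A at 1.63 and HSPD1 at 1.34) and none below, HSPA1B being at -0.76 and HSF1 at 0.96. Over all genes 657 were then above and 491 below. The GC content of the longest transcript was 40.0% for HSPH1, 44.2% for HSPD1, 45.2% for HSP90AA1 and 47.0% for HSPA8. It was 58.7% for HSPA1B, 59.7% for HSPA1A and 64.7% for HSF1. The part of GC content, of the split between copies and of MALAT1 in these 2 libraries was not tested.

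**Figure D3:**
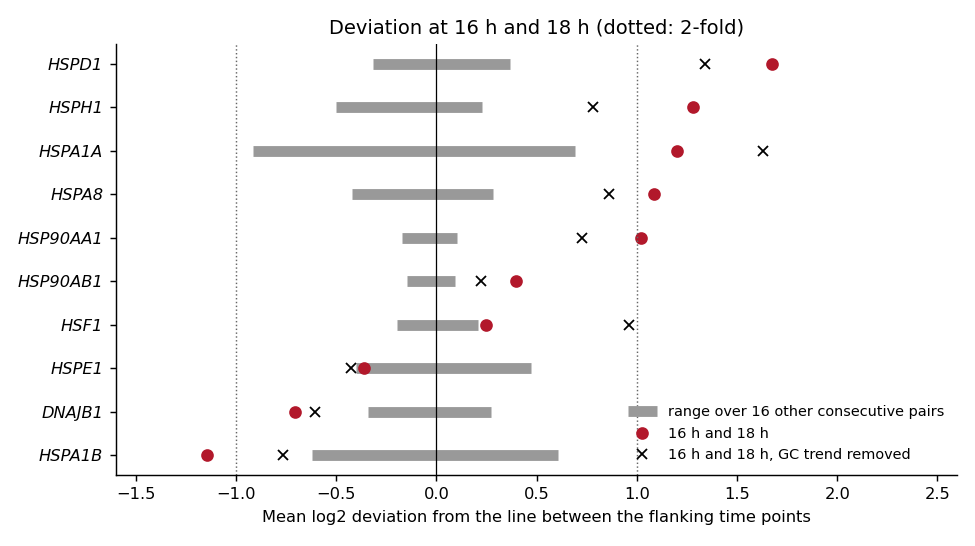
Mean deviation of the 16 h and 18 h libraries from the line between 14 h and 20 h for each member (horizontal axis, log2(FPKM + 1) scale): red circles as deposited, crosses after removal of the GC trend, grey bars the range over 16 other consecutive pairs, dotted lines 2-fold. HSPD1 lies highest at 1.68 and HSPA1B lowest at -1.14; the red circle of HSPE1 lies within its grey bar.

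Ratios were taken within 5 pairs of members, and 3 of them left their range at 16 h and 18 h. HSPA1A to HSPA1B was between 0.736 and 1.74 in the 22 libraries (median 1.10) but 5.92 at 16 h and 6.91 at 18 h. The sum of both was 210.7 FPKM at 16 h and 214.5 at 18 h, close to its 207.4 at 10 h and above its 174.8 at 14 h. HSPD1 to HSPE1 was between 2.17 and 5.10 (median 2.53) but 8.59 and 10.0. HSP90AA1 to HSP90AB1 was between 0.464 and 0.604 (median 0.563) but 0.882 and 0.939. These 3 ratios stood above their whole range at both times. HSPA1A to HSPA8 (0.052 and 0.050, range 0.023 to 0.065) and HSPH1 to HSPA8 (0.079 and 0.089, range 0.059 to 0.109) stayed within theirs.

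The 32 h library held the next highest value of 2 of these ratios, 1.74 for HSPA1A to HSPA1B and 5.10 for HSPD1 to HSPE1. HSP90AA1 to HSP90AB1 was 0.566 there, near its median. HSPD1 was 722 FPKM there, against 525 at 30 h and 533 at 34 h, while HSPE1 was 142 against 218 and 151. HSF1 was 54.6 FPKM against 42.0 and 41.9. At 6 h the same signs appeared, with HSPD1 at 582 FPKM between 419 and 475, HSPE1 at 161 between 186 and 197 and HSF1 at 60.2 between 48.8 and 54.7. The highest HSF1 value of the 22 libraries was the one at 6 h.

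**Figure D4:**
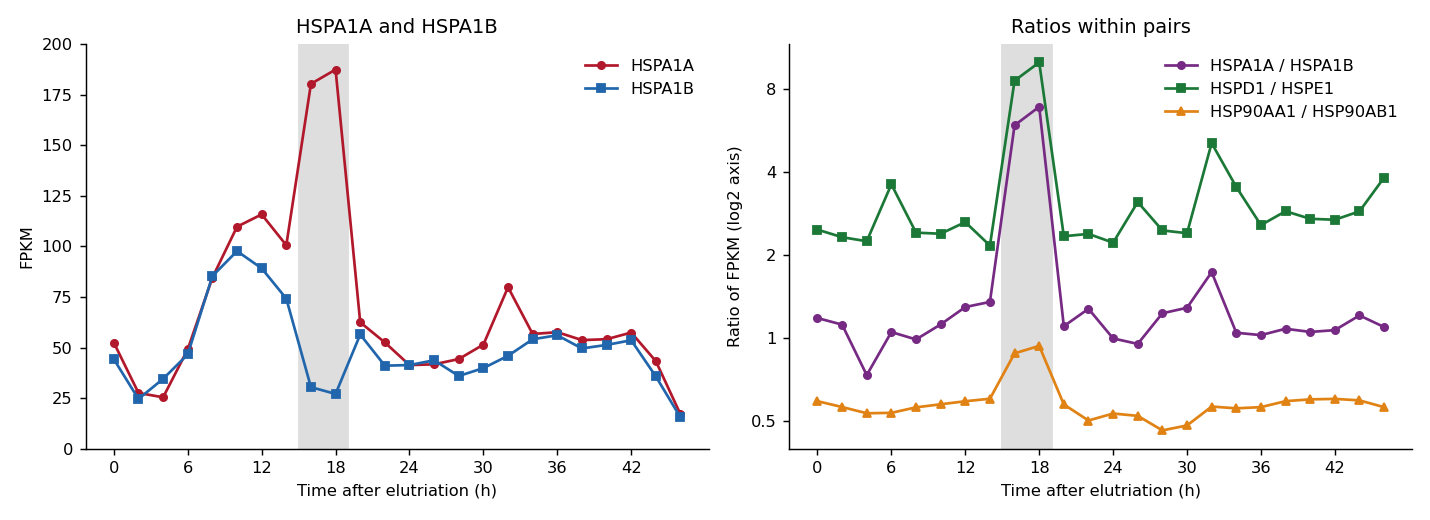
Left, FPKM of HSPA1A (circles) and HSPA1B (squares) against time in hours, 1 library per point; right, ratios of FPKM within 3 pairs of genes on a log2 axis; grey bands mark 16 h and 18 h. The 2 HSP70 genes run together, with ratios of 0.736 to 1.74, except in the grey band, where HSPA1A is 5.92 and 6.91 times HSPA1B.

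Across the 22 time points Pearson r on the log2(FPKM + 1) scale was above 0 for 36 of 36 pairs among the 9 chaperones (0.03 to 0.94, median 0.56), although some were close to 0. Among all pairs of the 7169 genes with a mean of 10 FPKM or more, 53.5% were above 0, with a median of 0.04. The points share the libraries and follow each other in time, so the r values are descriptions. The closest pairs were HSPA1A with HSPA1B (r = 0.94), HSPA1B with DNAJB1 (0.91), HSPA1A with HSPA8 (0.86) and HSP90AB1 with HSPE1 (0.86). Most coding reads of HSPA1A and HSPA1B would fit both, so their r does not compare separate measurements. The weakest were HSP90AA1 with HSPD1 (0.03) and HSPD1 with HSPE1 (0.09), although the latter start at most 539 bases apart. HSF1 was above 0 with 8 of 9 chaperones (-0.01 to 0.48, median 0.30), highest with HSPA1B.

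With 16 h and 18 h included the picture changed for the members that split there. HSPA1A with HSPA1B had r = 0.48 over 24 libraries, and HSPA8 with DNAJB1 went from 0.75 to -0.08. HSP90AA1 with HSPD1 went from 0.03 to 0.88. The sign of the relation of HSPA8 with DNAJB1, and the strength of the other two, therefore depended on 16 h and 18 h.

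Outside the members and the lists below, the 5 genes most like the mean profile of the members other than HSF1 and HSPA1B, among 7169 genes with a mean of 10 FPKM or more over 22 libraries, were DLEU1 (r = 0.90), a long non-coding RNA gene, NOP10 (0.87), PRMT1 (0.87), MPHOSPH6 (0.87) and RRP9 (0.86). In the libraries of 4 h, 12 h, 36 h and 46 h NOP10, a small nucleolar ribonucleoprotein subunit, was 160, 192, 172 and 143 FPKM. PRMT1, an arginine methyltransferase, was 148, 212, 178 and 146 FPKM in these. Both were highest at 12 h of these 4, by less than HSPA1A was. Among the listed partners of the chaperones, the J-domain protein DNAJA1 was closest (0.88), then STIP1 (0.81), which joins HSP70 to HSP90, and AHSA1 (0.76), which activates the HSP90 ATPase.

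The other genes of the pathway were counted from 5 lists, of which 63 of 69 genes were in the table. From 4 h to 12 h all 14 HSP90 cochaperones were higher, with a median of 0.37 on the log2(FPKM + 1) scale against 0.01 over all genes. In the libraries of 0 h, 4 h and 12 h CHORDC1 had 70.8, 38.0 and 75.2 FPKM. AHSA1 had 155, 108 and 193 FPKM and FKBP4 106, 69.7 and 113. For these genes 4 h held the lowest value of the 22 libraries, so the step starts at a low point. In the HSP70 machinery 10 of 13 were higher (median 0.20). The stress-inducible cochaperone BAG3 had 22.0, 11.2 and 19.9 FPKM at 0 h, 4 h and 12 h. Of the mitochondrial quality control genes 11 of 12 were higher (median 0.21), of the J-domain proteins 7 of 13 (0.09) and of the small heat shock proteins and factor partners 6 of 11 (0.02). Of all genes 52.1% were higher over this step. From 42 h to 46 h, 11 of 14 HSP90 cochaperones, 10 of 13 HSP70 machinery genes, 9 of 13 J-domain proteins, 8 of 11 small heat shock proteins and factor partners and 4 of 12 mitochondrial genes were lower, and 48.1% of all genes were. Differences between the lists were not tested.

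In the test of 24 h order, 3 of 14 HSP90 cochaperones were called against 13% of genes, AHSA1 (adjusted permutation p = 0.0154), CHORDC1 (0.0287) and FKBP4 (0.0380). DNAJB12 (0.00953), DNAJB14 (0.0146) and DNAJB2 (0.0287) were called among 13 J-domain proteins, BAG2 (0.00521) among 13 of the HSP70 machinery, GRPEL2 (0.0459) among 12 mitochondrial genes and none of 11 small heat shock proteins and factor partners. Without 16 h and 18 h, CHORDC1, FKBP4, DNAJB2 and GRPEL2 were not called, whereas PPP5C, DNAJC2, DNAJC9 and HSPA14 were, so that 2 of 14, 4 of 13, 2 of 13, 0 of 12 and 0 of 11 were called in these lists, against 14.7% of genes.

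Between the days, 4 of 63 listed genes rose and 2 fell by limma, against 12.6% and 6.8% of all genes. CRYAB, a small heat shock protein, rose by 0.48 (SE 0.093, limma adjusted p = 0.00460), and SERPINH1, the collagen chaperone, by 0.41 (limma adjusted p = 0.0373). The HSP90 cochaperones CDC37 (0.24, limma adjusted p = 0.0490) and FKBP5 (0.17, limma adjusted p = 0.0331) also rose. DNAJB2 fell by 0.39 (limma adjusted p = 0.0175) and BAG1 by 0.17 (limma adjusted p = 0.0405). No mitochondrial quality control gene was called in either direction. In the comparison of the first hours with those one day later no listed gene was called.

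At 16 h and 18 h, 3 of 13 J-domain proteins were 2-fold or more above the line, against 8.95% of genes, namely DNAJC7 (1.45), DNAJC2 (1.34) and DNAJC21 (1.05), and none was below. HSPA4L (1.36) was the only one of 13 above in the HSP70 machinery and the cyclophilin PPID (1.23) the only one of 14 HSP90 cochaperones, which is near the share over all genes. HSPA9, the mitochondrial HSP70, was at 1.34, with 371 FPKM at 14 h, 884 and 934 at 16 h and 18 h and 346 at 20 h. DNLZ, which keeps HSPA9 soluble, was at -1.01, and HSF4 at -1.25, against 7.11% of genes below. HSPA9 was the only one above and DNLZ the only one below among 12 mitochondrial genes. HSF4 was the only one below among 11 small heat shock proteins and factor partners. With the GC trend removed, DNAJC7 (1.204) stayed past 2-fold, against 5.41% of genes above and 4.04% below. DNAJC2 (0.97), DNAJC21 (0.53), HSPA4L (0.81), PPID (0.82), HSPA9 (0.98), DNLZ (-0.31) and HSF4 (-0.67) did not. Of the listed genes, CLPP (1.43) and NUDC (1.17) were above 2-fold only after removal.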

How the data were processed

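The expression table held an FPKM value for every gene in each library. The authors made these FPKM from reads with STAR, Cufflinks and Cuffnorm on build GRCh37, per the labels. The study names Cufflinks2 for this dataset. Other versions and the annotation are not given in the sources used here, and depth is unknown. Each gene deposited had at least 1 FPKM at 12 or more time points. The second table the authors deposited held a score, in which Z-scores of each gene were then quantile normalized, and served as an alternative only. Samples were assigned to time points from their titles.

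FPKM were used as deposited. Fits used log2(FPKM + 1) of 12253 genes, those averaging 1 FPKM or more, a scale that understates changes of low genes. The JTK statistic used 100000 orderings of the time points. Differences used limma 3.58.1 in R 4.3.3. Adjustment was by Benjamini-Hochberg over all genes tested, with calls at 0.05. P-values measure the spread between time points, which are not independent replicates. In the comparison of days the matched hour was a block. The JTK and limma procedures were run on simulated data with independent noise at each time point, unlike a serial course. The other measures had no such check. Members and lists were chosen with earlier results of these data known. Named genes were the members, up to 4 genes per list with the largest change past the threshold, and the 5 most alike profiles. The steps from 4 h to 12 h and from 42 h to 46 h were chosen after the values were seen. So were the genes of the lists in those steps and the block from 8 h to 14 h. Promoter sequences are RefSeq GRCh38.p14, exons are GENCODE 29, and FPKM positions were not converted.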

Additional observations from a re-analysis of the deposited data

How the results depend on the processing

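The number of members called for 24 h order was 1, and it became 0 at a period of 28 h (3.13% of all genes called), 4 without 16 h and 18 h (14.7%), 3 without 32 h as well (16.7%), 3 in the cleaned table (11.6%), 2 with upper-quartile scaling (13.5%), 2 among genes with a mean of 10 FPKM or more (16.2%), and 2 without 46 h (11.1%), where HSP90AA1 was also called (adjusted permutation p = 0.0399). The number called between days was 2, and both lower, and it was 1 with all 12 hour pairs (5.16% of all genes lower), 1 with no replicate block (6.43%), 4 in the cleaned table (10.3%) and 1 without 22 h and 46 h (6.63%). HSPH1 changed sign without 22 h and 46 h (0.030), DNAJB1 (0.045) with all 12 pairs, and HSPD1 with all 12 pairs (-0.27), without 8 h and 32 h (-0.030), with median scaling (-0.0018) and in the cleaned table (-0.082, in score units). HSPA8 was at -0.076 without 22 h and 46 h and at -0.39 with all 12 pairs, and HSPE1 was at -0.16 without 22 h and 46 h. None of these values was called. The cause was not tested.

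In the comparison of the first hours, the number of members called was 0 to 2 when 1 library was left out, the 2 without 0 h, and 0 with the matched hour as a replicate block. The pairing of hours comes from the assumed 24 h cycle and not from shared samples. In the cleaned table HSPA1A (0.31), HSPA1B (0.051) and HSPH1 (0.0069, all in score units) changed sign, and HSP90AB1, at 0.0097 with all libraries, ran from -0.051 without 0 h to 0.079 without 4 h, being also below 0 without 24 h (-0.0013) and without 26 h (-0.0076). At 16 h and 18 h, 3 members were 2-fold above with median scaling, 2 with upper-quartile scaling and 2 with the GC trend removed, which also left 0 below. Leaving out 46 h, 22 h with 46 h, and 32 h (with 16 h and 18 h, or with 8 h), and removing the GC trend, were added after the data were seen. The unknown depth and single libraries limit every value of 1 time point.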
